A study of Mus musculus with 8 samples.

Results

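The 9 genes described here belong to the glucocorticoid response of the mouse jejunum. They were taken by gene symbol from the 56980 gene identifiers of 8 read count sets, and each matched 1 identifier. Zbtb16, Fkbp5, Tsc22d3, Sgk1, Klf9 and Ddit4 are genes that glucocorticoids are known to induce. Nr3c1 encodes the glucocorticoid receptor, and Hsd11b1 and Hsd11b2 encode the enzymes that activate and inactivate the hormone. Zbtb16 was chosen because its level was lower in the knockout, so its difference between genotypes is given as a description with no test.

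RNA was sequenced from scraped jejunal mucosa of male mice, with 4 libraries from FFA2 fl/fl littermates (floxed controls) and 4 from Adipoq‐F2‐KO mice. FFA2, encoded by Ffar2, is a receptor for short-chain fatty acids. Both genotypes carried the floxed FFA2 alleles, and the Adipoq‐F2‐KO mice also carried an adiponectin-driven Cre recombinase, which is active in adipocytes. Both ate chow until 12 weeks of age and then a Western diet with 10% fructooligosaccharides for 2 weeks in thermoneutral housing. The deletion was therefore not directed at the cells sampled here, and Ffar2 itself was low in both genotypes, with raw counts of 12, 18, 2 and 11 in floxed controls 1 to 4 and 13, 12, 6 and 3 in Adipoq‐F2‐KO mice 1 to 4. Total counts ranged from 6007654 to 21712776 per library. Floxed control 3 and Adipoq‐F2‐KO mice 3 and 4 had at most 6541595 counts (the 3 shallow libraries), and the other 5 had at least 15204995 (the deep libraries). The enterocyte marker Vil1 was high in every library, with normalized counts of 34304 to 38931 in floxed controls and 31445 to 40394 in Adipoq‐F2‐KO mice. Muscle content varied within both genotypes, since normalized counts of Myh11, the smooth muscle myosin heavy chain, spanned 64.8 to 9682 in floxed controls and 144 to 3540 in Adipoq‐F2‐KO mice.

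Glucocorticoids, chiefly corticosterone in the mouse, enter cells and bind the receptor Nr3c1, which is held in the cytoplasm by chaperones. The bound receptor moves to the nucleus, where it binds DNA at paired sites and raises or lowers transcription of nearby genes. In the intestine glucocorticoids promote epithelial maturation and sodium and nutrient transport, and they dampen immune responses. Hsd11b1 regenerates active hormone inside cells, whereas Hsd11b2 inactivates it and so protects the mineralocorticoid receptor in epithelia that answer to aldosterone. Zbtb16 (also called PLZF) is a zinc finger transcription factor that is induced by glucocorticoids in several tissues and is also required for innate-like T cells.

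The receptor binds a palindrome of 15 letters, the half-site AGAACA followed by 3 free letters and its reverse complement TGTTCT. This element was searched on both strands of the 250 bases before each RefSeq start site (GRCm38.p6). Of the 9 genes, 6 had a window, 13 windows in all. Only Sgk1 among these 6 held the full element, in 1 of its 6 windows, and 3 of all 32851 mouse windows held it (0.00913%). In that window, chr10:21993640-21993889 on the plus strand, the element lies at chr10:21993701-21993715 and begins 189 bases before the start site. The Sgk1 window is shown with the element in capitals, and the single windows of Fkbp5 (chr17:28486150-28486399, minus strand) and Klf9 (chr19:23140976-23141225, plus strand) are shown beside it because these genes are also classical glucocorticoid targets but hold no such element there. None of the 3 windows overlaps an annotated exon.
Sgk1: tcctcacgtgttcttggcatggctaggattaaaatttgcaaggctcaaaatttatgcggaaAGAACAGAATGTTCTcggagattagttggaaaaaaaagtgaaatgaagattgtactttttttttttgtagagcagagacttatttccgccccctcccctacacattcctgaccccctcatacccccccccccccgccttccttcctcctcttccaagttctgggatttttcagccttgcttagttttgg
Fkbp5: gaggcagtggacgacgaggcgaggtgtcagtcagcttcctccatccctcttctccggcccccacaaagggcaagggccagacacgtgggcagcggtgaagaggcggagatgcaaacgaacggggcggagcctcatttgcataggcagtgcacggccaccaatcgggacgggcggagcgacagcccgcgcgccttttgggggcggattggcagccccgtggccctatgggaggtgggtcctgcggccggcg
Klf9: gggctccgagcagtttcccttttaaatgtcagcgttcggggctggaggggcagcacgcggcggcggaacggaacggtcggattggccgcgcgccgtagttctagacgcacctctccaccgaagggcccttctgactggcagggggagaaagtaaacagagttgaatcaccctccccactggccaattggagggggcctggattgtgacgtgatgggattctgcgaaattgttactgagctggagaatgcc

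Shorter forms of the element were searched in the same way, and both lie inside the full one. The core (ACA, 3 free letters, TGT) was in 6.76% of all 27025 genes with a window (5.84% of windows) and in 1 of the 6 genes, again Sgk1, in 2 of its windows. The half-site AGAACA was in 18.2% of all genes (16.1% of windows) and in 2 of the 6 genes, Sgk1 and Tsc22d3. Sgk1 with 6 windows and Tsc22d3 with 3 had more sequence searched than the genes with 1 window. These are matches of letters in a short window, and no receptor binding was measured.

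Levels per exon length differed widely among the 9 genes. With read counts divided by exon length and by the library total (RPKM), the median over the 8 libraries was 74.9 for Sgk1 (range 38.2 to 113), a kinase that activates sodium transport. It was 29.4 for Nr3c1 (23.2 to 33.1) and 17.6 for Tsc22d3 (11.5 to 22.5), which encodes the anti-inflammatory protein GILZ. Each of these ranges lay clear of that of the next gene in the order. The transcription factor gene Klf9 followed at 6.83 RPKM, Ddit4 (REDD1, an inhibitor of mTORC1) at 5.34, and Fkbp5, a co-chaperone that lowers the receptor's affinity for hormone, at 3.11. Hsd11b2 stood at 1.58 RPKM, Zbtb16 at 0.683 and Hsd11b1 at 0.242. From Klf9 downwards the range of each gene overlapped that of its neighbour in the order, although the ranges of Klf9 and Ddit4 lay wholly above those of Hsd11b2, Zbtb16 and Hsd11b1.

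**Figure D1:**
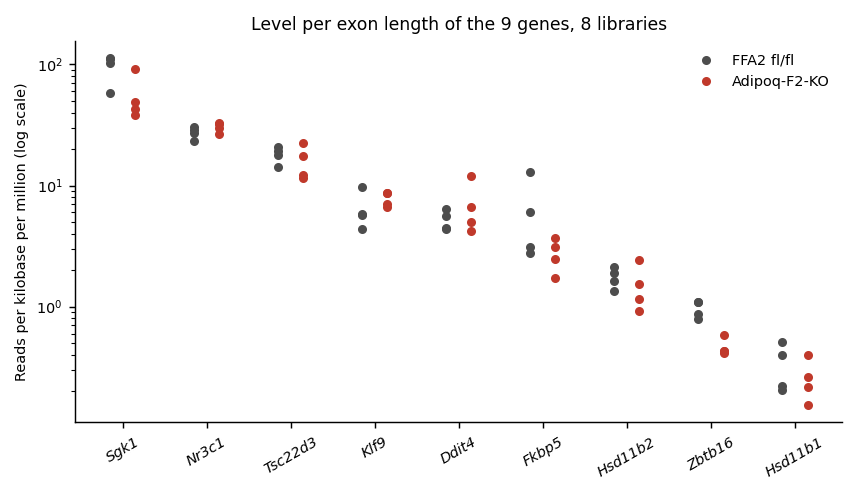
Level of each gene in RPKM (per exon length and library total) on a log axis, 1 point per library, with genes ordered by their median over the 8 libraries (grey, 4 floxed controls; red, 4 Adipoq‐F2‐KO mice). Sgk1 is highest (median 74.9) and Hsd11b1 lowest (median 0.242), and Zbtb16 is second from the bottom at 0.683.

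Zbtb16 (ENSMUSG00000066687, chr9:48654297-48836222, minus strand, GRCm38) was scarce in jejunal mucosa, with raw counts of 111, 126, 25 and 71 in floxed controls 1 to 4 and 33, 41, 14 and 20 in Adipoq‐F2‐KO mice 1 to 4. Divided by the DESeq2 size factor of each library, these gave normalized counts of 67.2, 66.4, 52.3 and 54.9 in floxed controls and 26.1, 25.4, 28.03 and 37.6 in Adipoq‐F2‐KO mice. Every Adipoq‐F2‐KO library lay below every floxed library. The mean normalized count was 60.2 ± 7.71 (SD, n = 4) for the floxed genotype and 29.3 ± 5.66 (SD, n = 4) for the knockout. The log2 fold change (Adipoq‐F2‐KO over floxed) was −1.10 with a standard error of 0.27, which is a 2.15-fold higher level in the floxed controls. Genotypes also failed to overlap, with the knockout lower, for 163 of the 15986 genes tested (1.02%), and nothing is read from this share because Zbtb16 was chosen on this contrast. No other annotated gene overlaps Zbtb16.

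In a mixed tissue, fewer cells of a type and less RNA per cell cannot be told apart. Zbtb16 marks innate T cells and innate lymphoid cells, and of 20 genes listed for those cells 14 were abundant enough to test. None of the 14 had an unadjusted DESeq2 p below 0.05, their median log2 fold change was 0.26, and 10 of them were higher in Adipoq‐F2‐KO mice. The summed normalized count of the list ranged from 1361 to 1591 in floxed controls and from 1309 to 1647 in Adipoq‐F2‐KO mice. The T cell marker Cd3e ranged from 111 to 201 in floxed controls and from 128 to 166 in Adipoq‐F2‐KO mice, so the knockouts lay inside the control range. The other 6 genes of the list did not pass the filter on low counts.

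**Figure D2:**
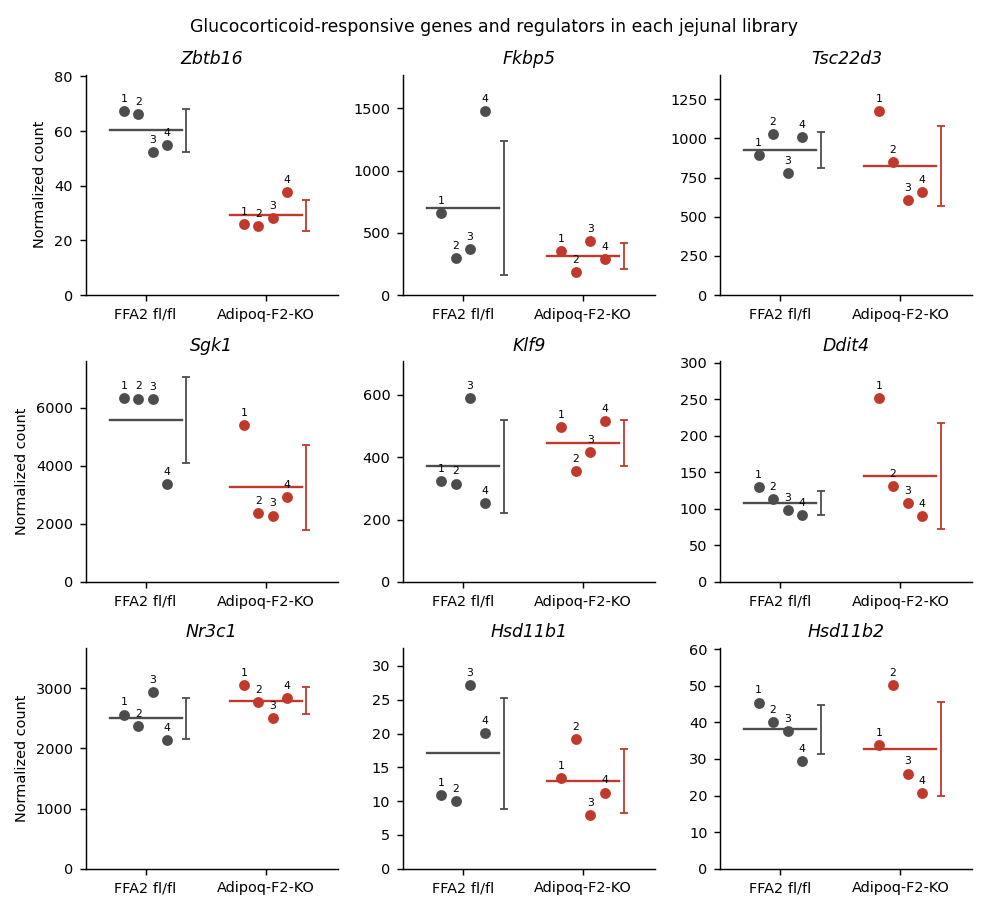
Normalized counts of the 9 genes in each library (counts divided by the DESeq2 size factor, linear axes from 0), with the library number above each point, the genotype mean as a line and 1 SD as the bar beside it (n = 4 per genotype). Zbtb16 is the 1 gene of the 9 whose genotypes do not overlap, Sgk1 has 3 of 4 floxed controls at 6322 to 6340 and 3 of 4 knockouts at 2290 to 2940, and Fkbp5 has 1 floxed control at 1477.

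Among the other 8 genes, 2 were lower in Adipoq‐F2‐KO mice at an unadjusted DESeq2 p below 0.05 (Sgk1 and Fkbp5) and none was higher. Over all 15986 genes tested, 1.38% were lower and 1.65% higher at this threshold, 3.03% in either direction. None of the 8 passed after Benjamini-Hochberg adjustment over all genes, where 0.0375% of all genes did, and their genotypes overlapped in every case. Over all genes the genotypes did not overlap for 1.02% with the knockout lower and for 1.1% with the knockout higher. The following paragraphs give their values by role.

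Sgk1 (ENSMUSG00000019970, chr10:21882184-21999903, plus strand) had normalized counts of 6340, 6327, 6322 and 3378 in floxed controls 1 to 4. In Adipoq‐F2‐KO mice 1 to 4 they were 5427, 2378, 2290 and 2940. The genotypes lay apart in 3 libraries each, whereas floxed control 4 lay near the knockout values and Adipoq‐F2‐KO mouse 1 near the control values. The mean was 5592 ± 1476 (SD) against 3259 ± 1474, a log2 fold change of −0.78 with a standard error of 0.29 and a 95% interval of −1.34 to −0.22. The unadjusted DESeq2 p was 0.00663 and the adjusted p 0.9998. The call depended on single libraries. Without Adipoq‐F2‐KO mouse 1 the log2 fold change was −1.14 and the adjusted DESeq2 p 0.00347. Without floxed control 1, 2 or 3 the log2 fold change was −0.71 to −0.72, close to that of all libraries, and the unadjusted DESeq2 p was 0.109, 0.107 or 0.109. In the 5 deep libraries alone the log2 fold change was −0.46 with an unadjusted p of 0.413.

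Fkbp5 (ENSMUSG00000024222, chr17:28399094-28517527, minus strand) had normalized counts of 657, 299.9, 372 and 1477 in floxed controls 1 to 4 and 350.5, 182, 430.5 and 288 in Adipoq‐F2‐KO mice 1 to 4. One floxed control stood far above all other libraries, and the remaining values of the genotypes interleaved. The mean was 702 ± 540 (SD) against 313 ± 105, a log2 fold change of −1.17 with a standard error of 0.57. The unadjusted DESeq2 p was 0.0405 and the adjusted p 0.9998. Without floxed control 4 the log2 fold change was −0.51 and the unadjusted DESeq2 p 0.116, so the size of the difference rested on a single mouse. That library was also among those with the least smooth muscle RNA (Myh11 at 82.0 normalized counts), and its Sgk1 count was the lowest of its genotype. The part of muscle content in this value was not tested beyond the correlations given further on and the fit with the muscle score, which gave a log2 fold change of −0.88. Fkbp5 overlaps 4 small annotated genes, none of them in its exons.

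Tsc22d3, Klf9 and Ddit4, the remaining induced genes, had 95% intervals of the difference that included 0. Tsc22d3 (ENSMUSG00000031431, chrX:140539528-140600659, minus strand) had normalized counts of 897, 1027, 780 and 1009 in floxed controls and 1174, 849, 609 and 658 in Adipoq‐F2‐KO mice. Adipoq‐F2‐KO mouse 1 was the highest library and Adipoq‐F2‐KO mice 3 and 4 the lowest, so the knockouts enclosed the control range. The log2 fold change was −0.17, with a 95% interval of −0.58 to 0.23, and the unadjusted DESeq2 p was 0.408. Without Adipoq‐F2‐KO mouse 1 it was −0.39, with an unadjusted DESeq2 p of 0.0206. It was −0.053 without Adipoq‐F2‐KO mouse 3 and −0.081 without Adipoq‐F2‐KO mouse 4.

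Klf9 (ENSMUSG00000033863, chr19:23141226-23168134, plus strand) had normalized counts of 325, 316, 590 and 252 in floxed controls and 497, 357, 416 and 517 in Adipoq‐F2‐KO mice. Floxed controls 1, 2 and 4 lay below all knockouts, but floxed control 3 was the highest library of all. Its log2 fold change was 0.28, with a 95% interval of −0.21 to 0.77, and the unadjusted DESeq2 p was 0.263. Without floxed control 3 it was 0.58, with an unadjusted DESeq2 p of 0.00082 and an adjusted p of 0.0711, and without floxed control 4 it was 0.14. The estimate for Klf9 pointed opposite to those of Zbtb16, Sgk1 and Fkbp5.

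Ddit4 (ENSMUSG00000020108, chr10:59949669-59951834, minus strand) had normalized counts of 130, 113, 98.3 and 92.1 in floxed controls and 252, 131, 108 and 90.2 in Adipoq‐F2‐KO mice. Adipoq‐F2‐KO mouse 1 stood apart from the other 7 libraries, and it was also the highest of all libraries for Tsc22d3 and the highest knockout for Sgk1. A log2 fold change of 0.44, with a 95% interval of −0.17 to 1.05, had an unadjusted DESeq2 p of 0.162, and without Adipoq‐F2‐KO mouse 1 the estimate was 0.035. In the 5 deep libraries it was 0.77 (unadjusted DESeq2 p 0.0200).

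**Figure D3:**
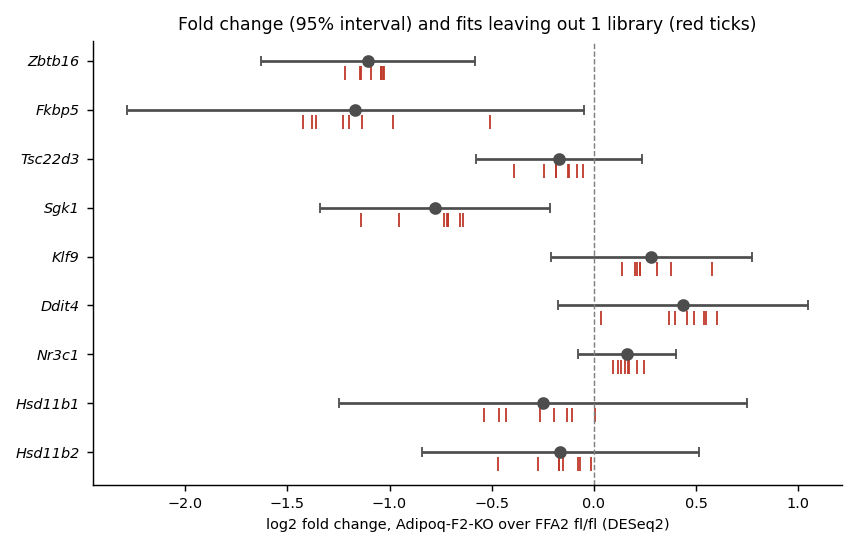
DESeq2 log2 fold change of each gene (point) with its 95% interval (bar), Adipoq‐F2‐KO over floxed controls, and the estimates obtained when 1 library at a time was left out (red ticks under each bar). The intervals of Sgk1 (−1.34 to −0.22) and Fkbp5 (−2.29 to −0.05) lie below 0, the ticks of Fkbp5 reach −0.51, and the intervals of the other 6 tested genes include 0. Zbtb16 was chosen for its difference, so its interval stands without a test.

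The receptor Nr3c1 (ENSMUSG00000024431, chromosome 18) had normalized counts of 2561, 2367, 2938 and 2136 in floxed controls and 3051, 2770, 2507 and 2833 in Adipoq‐F2‐KO mice. It was the steadiest of the 9 genes in the knockouts, with a coefficient of variation of 8.03%, and the genotypes overlapped. Its log2 fold change of 0.16, with a 95% interval of −0.08 to 0.40, had an unadjusted DESeq2 p of 0.187. The estimate depended on single floxed controls, and was 0.095 (unadjusted DESeq2 p 0.436) without control 4 and 0.25 (unadjusted DESeq2 p 0.0266) without control 3. In the 5 deep libraries it was 0.30 (unadjusted DESeq2 p 0.0226).

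Hsd11b2 (ENSMUSG00000031891, chr8:105518755-105523988, plus strand), the inactivating enzyme, had normalized counts of 45.4, 40.1, 37.6 and 29.4 in floxed controls and 33.9, 50.2, 26.0 and 20.7 in Adipoq‐F2‐KO mice. Adipoq‐F2‐KO mouse 2 was the highest library and mice 3 and 4 the lowest. Genotypes overlapped, and the log2 fold change of −0.16 (95% interval −0.84 to 0.51) had an unadjusted DESeq2 p of 0.637. It was −0.47 without Adipoq‐F2‐KO mouse 2, −0.016 without Adipoq‐F2‐KO mouse 4 and 0.13 in the 5 deep libraries.

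Hsd11b1 (ENSMUSG00000016194, chr1:193221634-193264075, minus strand), the activating enzyme, was close to the limit of this depth, with raw counts of 18, 19, 13 and 26 in floxed controls and 17, 31, 4 and 6 in Adipoq‐F2‐KO mice. Its normalized counts ranged from 10.0 to 27.2 in floxed controls and from 8.01 to 19.2 in Adipoq‐F2‐KO mice. The log2 fold change was −0.25, with a 95% interval of −1.25 to 0.75, and the unadjusted DESeq2 p was 0.626. Leaving out Adipoq‐F2‐KO mouse 2 gave −0.54, and the 5 deep libraries gave 0.27. It also shares its locus with Lamb3 on the opposite strand, without overlap of exons.

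Covariation from mouse to mouse was examined among the 8 genes other than Zbtb16. Among their 28 pairs, Pearson's r over the 8 libraries was positive for 20 and negative for 8, and by exact permutation tests, two-sided, 1 pair had an unadjusted p below 0.05 and none passed Benjamini-Hochberg adjustment over the 28. That pair was Klf9 and the receptor Nr3c1 (r = 0.878, exact permutation p = 0.00489, adjusted p = 0.137), with Spearman's rho of 0.857 (exact permutation p = 0.0107, adjusted p = 0.3). Without the 2 libraries farthest from the median of Klf9, r was 0.759, and in the 5 deep libraries it was 0.959. These values are on log2(normalized count + 1), and the pairs were computed after the other results had been seen.

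Muscle content and clock phase were examined because both can differ between scrapings or hours of sampling. A score for each list was the mean of its centred log2 values in a library. By exact permutation tests, two-sided, none of the 8 genes other than Zbtb16 followed the smooth muscle score at an unadjusted p below 0.05, and their lowest p adjusted over all 9 was 0.458. Fkbp5 came closest (r = −0.64, exact permutation p = 0.0770; rho = −0.62, exact permutation p = 0.115), and its r was −0.08 without floxed controls 1 and 4, −0.81 in the 5 deep libraries and −0.71 centred within genotypes. None of these 8 followed the score of evening clock genes at an unadjusted p below 0.05 either, with a lowest adjusted p of 0.367. For Sgk1 r was 0.60 (exact permutation p = 0.121; rho = 0.69, exact permutation p = 0.0694) and for Klf9 it was −0.59 (exact permutation p = 0.122; rho = −0.69, exact permutation p = 0.0694). Without floxed controls 1 and 2, the libraries farthest from the median score, r was 0.19 for Sgk1 and −0.57 for Klf9. In the 5 deep libraries it was 0.81 for Sgk1 and −0.30 for Klf9, and centred within genotypes it was 0.30 for Sgk1 and −0.47 for Klf9. Zbtb16 was left out of these counts, since its genotypes form separate groups and it was chosen for that difference. Centred within each genotype, its r was 0.04 with the smooth muscle score and 0.31 with the evening clock score.

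Genes with a pattern most like that of Zbtb16 over the 8 libraries were sought among 10225 genes with a mean normalized count of at least 50, by Pearson's r on log2(normalized count + 1), as a description with no test. The 5 most alike were Txndc15 (r = 0.954), B930086L07Rik (0.919), Cyp4b1 (0.917), Ankrd46 (0.899) and Ttc13 (0.892). The 3 most opposite were Ncapg (−0.955), a condensin subunit, Hist1h1b (−0.953), a linker histone of dividing cells, and Gsk3b (−0.949), a kinase of the insulin and Wnt pathways. This r is pooled over both genotypes, and because Zbtb16 separated them, genes that separate them score high by construction. Centred within genotypes, r ranged from 0.26 (Ankrd46) to 0.69 (Cyp4b1) for the 5 and from −0.72 (Ncapg) to −0.66 (Hist1h1b) for the 3. Txndc15, a thioredoxin domain protein, ranged from 261 to 293 in floxed controls and from 216 to 239 in Adipoq‐F2‐KO mice. Of the other 8 genes, 6 reached that mean count. Sgk1 ranked 243 (r = 0.654) and Fkbp5 790 (r = 0.493), whereas r was 0.230 for Tsc22d3, −0.402 for Klf9, −0.446 for Ddit4 and −0.513 for Nr3c1.

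Beside the 9, a list of 30 further genes that glucocorticoids induce in liver, muscle, immune cells or epithelia was examined. Of the 27 abundant enough to test, 3 were lower and 1 was higher in Adipoq‐F2‐KO mice at an unadjusted DESeq2 p below 0.05, and none passed adjustment. Their median log2 fold change was −0.21, against −0.01 over all genes tested, with 22 negative and 5 positive estimates. The median was −0.07 in the 5 deep libraries, −0.14 without Adipoq‐F2‐KO mouse 3 and −0.31 without floxed control 4. Errfi1, a feedback inhibitor of the epidermal growth factor receptor, had the lowest p of them (normalized counts 2580, 2446, 1236 and 1908 in floxed controls and 1492, 1092, 1396 and 1372 in Adipoq‐F2‐KO mice). Its log2 fold change was −0.61, with an unadjusted DESeq2 p of 0.00442 and an adjusted p of 0.995, and floxed control 3 lay among the knockouts. The unadjusted p of Errfi1 was below 0.05 in 15 of 15 alternative fits and the adjusted p in 2, with an adjusted DESeq2 p of 0.00012 without floxed control 3. Irs2, an adaptor of the insulin receptor, was the 1 gene higher in the knockouts, by 0.51 on the log2 scale (unadjusted DESeq2 p 0.0119). The metallothionein gene Mt2 had a log2 fold change of −2.50 (unadjusted DESeq2 p 0.0224), but floxed control 2 held 188 normalized counts and floxed controls 1, 3 and 4 held 9.09, 6.27 and 32.5. Without floxed control 2 its log2 fold change was −0.63. Mertk, a phagocytosis receptor outside the naming rule and named after its values were seen, was the remaining gene, at −0.26 (unadjusted DESeq2 p 0.0413). In the promoter windows, 27 of these 30 genes had an entry, and 0 held the full element, 4 the core and 3 the half-site.

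Chaperones and coregulators of the receptor had estimates in both directions, 9 negative and 11 positive. Of 20 tested, 1 was higher at an unadjusted DESeq2 p below 0.05 and none lower, with a median log2 fold change of 0.01. The higher gene was Ncoa1, a steroid receptor coactivator, with 841 to 940 normalized counts in floxed controls and 963 to 1050 in Adipoq‐F2‐KO mice (log2 fold change 0.18, unadjusted DESeq2 p 0.0375, adjusted p 0.9998). Its unadjusted p was below 0.05 in 2 of 15 alternative fits.

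Among 17 genes of steroid synthesis, activation and clearance 9 could be tested, and 1 was lower at an unadjusted DESeq2 p below 0.05. It was Hsd3b3, a 3-beta-hydroxysteroid dehydrogenase, with normalized counts of 617, 363, 362 and 334 in floxed controls and 325, 202, 326 and 312 in Adipoq‐F2‐KO mice. Its log2 fold change was −0.53 (unadjusted DESeq2 p 0.0258, adjusted p 0.9998), and it was −0.29 without floxed control 1. The median of the 9 was −0.40. Transcripts of the enzymes that make corticosterone were scarce, since Cyp11a1 had at most 2 raw counts in a library, Cyp21a1 at most 1 and Cyp11b1 at most 11. Nr5a2, the nuclear receptor that drives steroid synthesis in the gut, had a log2 fold change of 0.12 (unadjusted DESeq2 p 0.547).

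Mineralocorticoid signalling and sodium transport, to which Sgk1 and Hsd11b2 also belong, showed no gene at an unadjusted DESeq2 p below 0.05 among 13 tested in either direction, with a median log2 fold change of 0.02. The mineralocorticoid receptor Nr3c2 had normalized counts of 1360 to 1908 in floxed controls and 1680 to 2046 in Adipoq‐F2‐KO mice (log2 fold change 0.21, unadjusted DESeq2 p 0.102). Its log2 fold change was 0.13 without floxed control 4 and 0.29 without floxed control 1. Of the sodium channel subunits that Sgk1 regulates in the distal gut, Scnn1g had no counts in any library and Scnn1b at most 4, whereas Scnn1a was expressed in both genotypes (log2 fold change −0.24, unadjusted DESeq2 p 0.149). Nedd4l, the ubiquitin ligase that Sgk1 inhibits, had a log2 fold change of 0.04 (unadjusted DESeq2 p 0.732).

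Of 19 tested paralogs of the 9 genes, 1 was higher and none lower at an unadjusted DESeq2 p below 0.05, with a median log2 fold change of −0.02. It was Zbtb7a, a transcription factor of the same family as Zbtb16, with 2241 to 2411 normalized counts in floxed controls and 2552 to 2828 in Adipoq‐F2‐KO mice (log2 fold change 0.18, unadjusted DESeq2 p 0.0140, adjusted p 0.9998), and its unadjusted p was below 0.05 in 9 of 15 alternative fits. Among 15 tested genes of mTORC1 and the integrated stress response, in which Ddit4 acts, none had an unadjusted DESeq2 p below 0.05, and the median log2 fold change was 0.00.

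Clock genes are known to follow corticosterone and to share inputs with several of the 9 genes. Of 10 tested evening-phase genes, 3 were lower in Adipoq‐F2‐KO mice at an unadjusted DESeq2 p below 0.05 and none was higher. The evening-phase estimates did not all point the same way, since 7 were negative and 3 positive (median −0.24 on the log2 scale). None of 5 morning-phase genes was lower or higher at this threshold. Per2, a repressor of the clock and itself a glucocorticoid target, had normalized counts of 1562, 1842, 981 and 2121 in floxed controls and 923, 890.3, 1253 and 882 in Adipoq‐F2‐KO mice. Floxed controls 1, 2 and 4 lay above all knockouts, and floxed control 3 lay among them. The log2 fold change of Per2 was −0.72 (unadjusted DESeq2 p 0.00116, adjusted p 0.602), and in the 5 deep libraries it was −1.03 with an adjusted p of 1.3e-06. Hlf had a log2 fold change of −0.72 (unadjusted DESeq2 p 0.0108) and Bhlhe40 of −0.56 (unadjusted DESeq2 p 0.0108), and both are transcription factors with daily rhythms. Normalized counts of Hlf were 425, 506, 278 and 509 in floxed controls and 238, 171, 424 and 222 in Adipoq‐F2‐KO mice. In the 5 deep libraries Hlf was at −1.24 with an adjusted DESeq2 p of 2.7e-06, and without floxed control 4 Bhlhe40 was at −0.36. The deep libraries leave out floxed control 3 and Adipoq‐F2‐KO mouse 3, the lowest control and the highest knockout for both Per2 and Hlf. Of all genes 5.4% had an unadjusted p below 0.05 in that fit, against 3.03% with all libraries. The part of collection time in these values was not tested.

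Immediate early genes, which respond to handling and stress within minutes, gave 2 lower and 0 higher of 16 tested at an unadjusted DESeq2 p below 0.05, with a median log2 fold change of −0.10. Fosb was at −0.96 (unadjusted DESeq2 p 0.0191) and at −0.55 in the 5 deep libraries, and its normalized counts overlapped between genotypes. Ier3 ranged from 46.0 to 56.5 in floxed controls and from 29.2 to 39.1 in Adipoq‐F2‐KO mice, with a log2 fold change of −0.59 (unadjusted DESeq2 p 0.0224, adjusted p 0.9998). The unadjusted p of Fosb and that of Ier3 were each below 0.05 in 9 of 15 alternative fits.

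**Figure D4:**
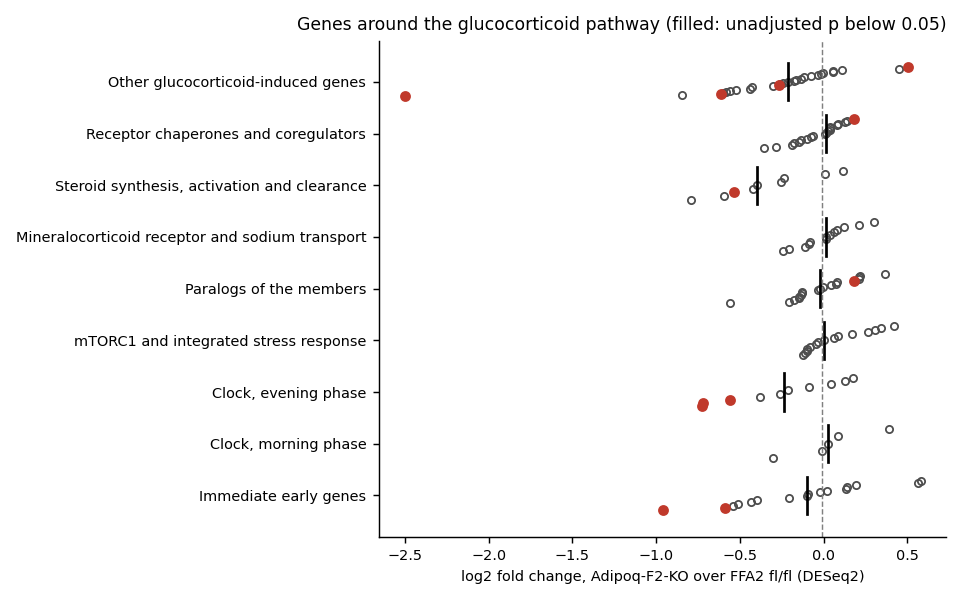
DESeq2 log2 fold change of every tested gene in 9 gene lists around the glucocorticoid pathway, Adipoq‐F2‐KO over floxed controls. Filled red points have an unadjusted p below 0.05, black bars are list medians and the dashed line is the median of all genes tested. The 27 other glucocorticoid-induced genes have a median of −0.21 and the chaperones and coregulators 0.01, and the filled point at −2.50 is Mt2, whose value rests on 1 floxed control.

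Markers of other cell types were read beside these results. None of the tested markers of smooth muscle (15), fibroblasts (10), enterocytes (10), macrophages (9), B and plasma cells (7) or adipocytes (3) had an unadjusted DESeq2 p below 0.05. The direction of the smooth muscle list depended on floxed control 3 and on the method. In the DESeq2 fit 15 of 15 genes were negative (median log2 fold change −0.86), whereas 14 of 15 were positive without floxed control 3 (median 1.17), 13 of 15 with limma-voom (median 0.78) and 13 of 15 with the replicate block (median 0.43), and the mean score over all libraries was −0.19 in floxed controls and 0.19 in Adipoq‐F2‐KO mice. Estimates were positive for 9 of 9 macrophage genes (median 0.47, with 0.84 without floxed control 2 and 0.26 without floxed control 4) and for 6 of 7 B and plasma cell genes (median 0.87, with 0.45 without Adipoq‐F2‐KO mouse 2, 0.47 without floxed control 4 and 1.99 without floxed control 2). The part of these cell types in the results was not tested beyond the muscle score. Adipocyte RNA was scarce and uneven, and the defining marker Adipoq had raw counts of 2, 3, 59 and 0 in floxed controls and 0, 3, 27 and 12 in Adipoq‐F2‐KO mice. The 3 libraries with 12 or more Adipoq counts were the 3 shallow ones. The part of adipocyte RNA in the results was not tested.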

How the data were processed

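RNA from jejunal mucosa of 4 FFA2 fl/fl and 4 Adipoq‐F2‐KO mice was read from one end over 75 bp after poly-A selection with a stranded kit. The authors trimmed reads with Trimmomatic, aligned them with STAR and deposited raw counts per Ensembl gene from featureCounts, neither normalized nor pooled. The submitters' processing notes name GRCm38 and mm10. Versions of these tools, and whether strand was used in counting, are not given in the sources used here. Titles of the samples gave genotype and replicate number. Each library is taken as 1 mouse, so p-values measure the spread between these mice.

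A gene entered the test when 4 or more libraries held 10 or more counts (15986 genes). DESeq2 1.42.0 (R 4.3.3) was fitted with genotype alone, two-sided Wald tests and Benjamini-Hochberg adjustment over these genes, 8 of which had no adjusted p. All 9 described genes passed the filter. Dividing counts by the size factor of their library gave normalized counts. RPKM used total counts and the summed exon length in GENCODE M21. Intervals are 95% Wald intervals, and the precision is set by depth (6007654 to 21712776 counts) and by 4 mice per genotype. The scripts were tested on simulated data, in which fold changes were recovered closely but a larger share of the DESeq2 calls was false than the adjusted p threshold allows, and a larger share than with edgeR. DESeq2 p-values may therefore be too small. The 12 pairs of libraries within a genotype differed by a chi-square of at least 5.80 per gene, so no library was a duplicate.

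The members and the gene lists were chosen with earlier results of these data known. All 9 genes are named. From each pathway list the (at most 3) genes of lowest unadjusted p under 0.05 are named, as are Nr3c2 and the 5 genes most and 3 least like Zbtb16. Genes cited for their role or as markers (Cd3e, Myh11, Vil1, Adipoq, Cyp11a1, Cyp11b1, Cyp21a1, Nr5a2, Scnn1a, Scnn1b, Scnn1g, Nedd4l) were named with their values known. Of the list entries, 1 (H6pdh) matched no identifier under the symbol used and 1 symbol (Ddit3) belonged to several. Both were left out, so these genes were not examined, and the missing match does not mean that H6pdh is absent from the data. Alternatives were edgeR 4.0.16 quasi-likelihood, limma-voom 3.58.1, TMM factors, no filter, a replicate block, the smooth muscle score as a covariate, the 5 deep libraries alone (at least 15204995 counts) and leaving out each library. The correlations were also run on log2 CPM with TMM factors. The shares of all genes called, and the medians of the muscle, macrophage and B cell lists, in each alternative were added after seeing the data. Promoter windows are from RefSeq.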

Additional observations from a re-analysis of the deposited data

Results flagged for a closer look

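Sgk1 in floxed control 4 was far from the other libraries of its genotype. Its normalized count was 3378, whereas floxed controls 1 to 3 lay between 6322 and 6340, and its gap to the nearest of them was 0.994 of the group's whole range, above Dixon's 95% critical value for 4 samples. This was the 1 group beyond that value among 18 examined (9 genes in each of 2 genotypes), and chance alone flags about 1 in 20. Without this library the log2 fold change of Sgk1 was −0.96, with an unadjusted DESeq2 p of 0.000401 and an adjusted p of 0.457. The same library held the highest Fkbp5 count of all 8 libraries.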

How the results depend on the processing

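The Zbtb16 log2 fold change kept its direction under all 15 alternatives, from −1.30 to −1.03, and leaving out 1 library at a time gave −1.22 to −1.03. Zbtb16 was chosen for its lower level in the knockout, and its genotypes did not overlap. Its direction was therefore fixed in advance, and nothing is read from its stability. The count of the other 8 genes at an unadjusted p below 0.05 (2 in the fit reported) was 1 with limma-voom (Sgk1), 1 with the replicate block (Sgk1) and 1 with the smooth muscle score as a covariate (Fkbp5), and 0 to 3 when 1 library was left out. It was 0 without floxed control 1, 1 without floxed control 2 (Fkbp5), 1 without floxed control 4, Adipoq‐F2‐KO mouse 2 or Adipoq‐F2‐KO mouse 4 (Sgk1), 2 without Adipoq‐F2‐KO mouse 1 (Sgk1 and Tsc22d3) and 3 without floxed control 3 (Fkbp5, Klf9 and Nr3c1). The 5 deep libraries gave 3 different genes, Klf9, Ddit4 and Nr3c1. Over the alternatives Sgk1 ranged from −1.14 to −0.46, with an unadjusted p below 0.05 in 10 of 15, and Fkbp5 from −1.61 to −0.51, in 7 of 15. Sgk1 passed adjustment in 1 alternative, without Adipoq‐F2‐KO mouse 1 (−1.14, adjusted p 0.00347), and the other genes in none. Small estimates changed sign for Tsc22d3 in the 5 deep libraries (0.043), for Hsd11b2 in the 5 deep libraries (0.13) and for Hsd11b1 with limma-voom (0.0092), in the 5 deep libraries (0.27) and without floxed control 3 (0.0075), where leaving out 1 library at a time gave −0.54 to 0.0075. Of 99 genes in the 6 pathway lists, the count lower (4) was 7 with the replicate block, 7 in the 5 deep libraries and 2 to 9 when 1 library was left out, with 2 without floxed control 1 or Adipoq‐F2‐KO mouse 4 and 9 without floxed control 3. The count higher (3) was 1 with the smooth muscle covariate, 6 in the 5 deep libraries and 1 to 7 when 1 library was left out, with 7 without floxed control 3 and 1 without Adipoq‐F2‐KO mouse 1 or 2. Among the named list genes, the unadjusted p was below 0.05 in 15 of 15 alternatives for Per2 and Hlf, 14 for Irs2, 13 for Hsd3b3 and Bhlhe40 and 8 for Mt2. The cause of these shifts was not tested, beyond fewer samples where libraries were left out. The share of all genes at an unadjusted p below 0.05, 3.03% in the fit reported, was 8.15% without floxed control 3 (3.77% lower and 4.38% higher), 5.4% in the 5 deep libraries and 1.74% to 4.3% in the other alternatives. The largest counts above fell where this share was larger, except under the replicate block (2.71%). In the pathway lists the count lower also rose to 5 without floxed control 4, where the share was 1.76%. The count higher rose to 4 without floxed control 1 (2.05%) and to 4 with the replicate block. The number of genes correlated with either score at an adjusted p below 0.05 stayed at 0 in the 9 alternatives run for it, log2 CPM with TMM factors and leaving out each library, and in the 5 deep libraries r alone was computed, with no test. Deviations of same-numbered libraries correlated at 0.527, 0.536, −0.0086 and −0.36 over 5000 genes. Those of differently numbered libraries correlated at −0.43 to 0.61, with the highest for floxed control 3 and Adipoq‐F2‐KO mouse 4. The sample titles give no pairing beyond the number, and the source of these correlations was not tested. Raw counts of 4 to 126 limit Zbtb16, Hsd11b1 and Hsd11b2.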
